A study of Mus musculus with 95 samples.

Results

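The phase II conjugation enzymes join a small polar group to drugs, steroids and reactive by-products so that they can leave the liver cell. They were taken as every measured gene whose symbol marks it as a member of the following families. The first are glutathione S-transferases (Gst, classes a, k, m, o, p, t and z) and microsomal glutathione S-transferases (Mgst1, Mgst2, Mgst3). The others are UDP-glycosyltransferases (Ugt, mostly UDP-glucuronosyltransferases) and cytosolic sulfotransferases (Sult). Together they gave 42 of 16464 genes on the arrays. These were 21 Gst and Mgst genes, 9 Ugt genes and 12 Sult genes, and 1 further Ugt gene was left out by the rule that chose them. The rule admits Ugt1 genes, but none was among the 9, so the counts of Ugt genes below do not cover that group. The rule reads the symbols and sets no threshold on a measured value.

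The livers came from male C57BL/6 mice, 10 weeks old and 21 to 27 g in weight, that had been dosed by oral gavage, and 95 Affymetrix arrays were used. Amiodarone, an antiarrhythmic drug, was given at 60 mg/kg for 1, 4 or 11 days and at 6.7 and 20 mg/kg for 11 days. Valproic acid, an antiepileptic drug, was given at 500 mg/kg for 1, 4 or 11 days and at 125 and 250 mg/kg for 11 days, and phosphate-buffered saline (PBS) was the vehicle of both compounds. Tetracycline, an antibiotic, was given at 133 mg/kg for 1, 4 or 11 days and at 14.8 and 44 mg/kg for 11 days, with water containing ascorbic acid as its vehicle. Each group had 4 arrays where treatment lasted 1 or 4 days, and 5 where it lasted 11. The labels name no genetic change in any group, and the title of the series names drug-induced steatosis, the build-up of fat in liver cells. Of 8 measured hepatocyte markers all lay above the array median in the mean over all arrays, the array medians ran from 3.08 to 3.15 on the log2 scale and correlations between arrays from 0.977 to 0.996. How precise a mean can be depends here on how many arrays it has.

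Glutathione S-transferases couple glutathione to electrophiles. UDP-glucuronosyltransferases transfer glucuronic acid from UDP-glucuronic acid, and sulfotransferases transfer sulfate from its activated carrier PAPS. Liver is the main organ of all these reactions, and many of the genes are known targets of the transcription factors NRF2 (encoded by Nfe2l2), the aryl hydrocarbon receptor, CAR (Nr1i3) and PXR (Nr1i2). Valproic acid is itself a substrate of glucuronidation.

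Promoters were read for members from the RefSeq table (build GRCm38.p6), which gives 250 bases before and 50 bases after each start of transcription and matched 38 of the 42 members through 50 promoters. Both strands were searched for the antioxidant response element core TGACNNNGC, the xenobiotic response element core GCGTG and the nuclear receptor core motif AGGTCA, and matches were allowed to overlap. TGACNNNGC was found in promoters of Gsta3, Gstm5, Gstm7 and Mgst1 (8% of the member promoters, against 12.4% of all 32851 promoters), GCGTG in those of 9 members (22% against 32.4%) and AGGTCA in those of 9 members (18% against 16.3%). A match is a description of the letters and no evidence of binding. A few promoters are shown in full because their genes stand for the response classes below: Gsta2 fell most on day 1 of valproic acid and rose on day 11, Gstm3 did the same and rose under amiodarone, and Gstm5 rose on both days. Capitals mark motif matches, each sequence runs 5′ to 3′ along the gene, and the file's own probe positions are not used here.
Gsta2, chr9:78347096-78347395, minus strand: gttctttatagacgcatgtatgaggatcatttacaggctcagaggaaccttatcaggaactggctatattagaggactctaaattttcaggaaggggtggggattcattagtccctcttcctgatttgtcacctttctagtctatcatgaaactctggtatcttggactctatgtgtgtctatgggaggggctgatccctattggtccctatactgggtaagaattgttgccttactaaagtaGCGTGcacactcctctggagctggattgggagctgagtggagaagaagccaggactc
Gstm3, chr3:107969125-107969424, minus strand: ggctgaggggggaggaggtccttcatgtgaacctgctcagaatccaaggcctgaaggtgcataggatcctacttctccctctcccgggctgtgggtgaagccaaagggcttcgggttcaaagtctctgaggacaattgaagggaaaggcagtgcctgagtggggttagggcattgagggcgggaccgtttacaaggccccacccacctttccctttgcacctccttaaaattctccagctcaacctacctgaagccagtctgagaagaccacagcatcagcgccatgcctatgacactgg
Gstm5, chr3:107895604-107895903, plus strand: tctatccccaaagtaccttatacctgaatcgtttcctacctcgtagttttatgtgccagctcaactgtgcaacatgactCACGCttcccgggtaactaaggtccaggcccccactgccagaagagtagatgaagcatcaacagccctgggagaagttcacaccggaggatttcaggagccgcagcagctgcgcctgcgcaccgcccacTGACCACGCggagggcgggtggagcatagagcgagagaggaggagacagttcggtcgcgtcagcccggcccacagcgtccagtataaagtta
The Gsta2 window held 1 match, GCGTG beginning 7 bases before the start. The Gstm5 window held TGACNNNGC at position -42, which shares bases with a GCGTG match on the other strand at -38, and another GCGTG match on the other strand at -171. No match to these letters was in the Gstm3 window.

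Among the Ugt2b genes, which lie side by side on chromosome 5 and fell together on day 1 of valproic acid, 4 of 6 promoters held AGGTCA. They are shown because the letters around it are shared by neighbours. Each line gives 40 bases with AGGTCA in capitals.
Ugt2b36, chr5:87092558-87092597, minus strand: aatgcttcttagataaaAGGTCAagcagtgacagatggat
Ugt2b5, chr5:87140340-87140379, minus strand: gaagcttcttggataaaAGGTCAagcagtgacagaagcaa
Ugt2b37, chr5:87254805-87254844, minus strand: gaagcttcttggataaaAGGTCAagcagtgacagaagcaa
Ugt2b35, chr5:87000628-87000667, plus strand: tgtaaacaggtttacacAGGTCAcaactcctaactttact
The stretches of Ugt2b5 and Ugt2b37 were identical over 40 bases, Ugt2b36 matched each of them at 34 of 40 bases, and in these 3 genes AGGTCA began 22 to 39 bases before the start. In Ugt2b35 it lay at position -215 and the stretch matched the other 3 at 8 to 11 of 40 bases. The windows of Ugt2b1 and Ugt2b34 held none of the 3 motifs. The Ugt2b genes are close paralogs, so a probe set of one may read transcripts of another and their values are uncertain as values of single genes. The Gstm genes on chromosome 3 and the Gsta genes are paralogs too, and the same may hold for them.

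Valproic acid at 500 mg/kg lowered the conjugating enzymes broadly on day 1. Against PBS, 24 of the 42 genes fell and 2 rose at an adjusted p under 0.05 (limma, adjusted over all 16464 genes), where 7.73% of all genes were called lower and 7.99% higher. The median difference over the 42 genes was -0.42 on the log2 scale and that over all genes was 0.01. The fall took in 8 of 9 Ugt genes, 12 of 21 Gst and Mgst genes and 4 of 12 Sult genes. In bulk liver, fewer cells of a type and less RNA per cell cannot be told apart.

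Gsta2, an alpha-class transferase that acts on peroxides and electrophiles, read 8.63, 8.84, 9.11 and 9.83 on the PBS arrays and 5.67, 7.33, 7.49 and 8.67 on those of valproic acid. The groups overlapped by 1 array, and the difference was -1.81 ± 0.29 (SE, adjusted p = 9.5e-07). The 4 treated arrays were widely spread, with an SD of 1.23, and in a limma fit of only the 8 arrays compared the adjusted p was 0.055. Gsta4, which conjugates aldehydes from lipid peroxidation, read 8.68, 8.80, 8.98 and 9.46 on PBS and 7.14, 7.71, 7.92 and 8.26 on valproic acid, so that every treated array lay below every vehicle array. It fell by 1.22 ± 0.15 (adjusted p = 7.4e-10).

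The mu-class gene Gstm3 read 6.92, 7.50, 7.85 and 7.94 on PBS and 5.38, 6.03, 6.36 and 6.98 on valproic acid, and fell by 1.37 ± 0.31 (adjusted p = 0.00048). A single treated array reached just above the lowest vehicle array. Gstm4 read 7.18, 7.25, 7.34 and 7.50 against 6.29, 6.35, 6.63 and 7.10, with no overlap, and the theta-class gene Gstt2 read 8.68, 8.83, 9.04 and 9.30 against 7.70, 8.08, 8.16 and 8.45, also with none. Gstm4 fell by 0.73 ± 0.15 and Gstt2 by 0.86 ± 0.17 (adjusted p = 9.9e-05 and 5.2e-05).

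Among the Sult1 genes, Sult1b1, Sult1c2 and Sult1d1 fell, Sult1a1 and Sult1e1 were not called and Sult1c1 was called higher. Sult1c2 read 4.68, 5.41, 5.53 and 5.69 on PBS and 3.15, 3.69, 3.87 and 3.87 on valproic acid, with no overlap, a difference of -1.68 ± 0.22 (adjusted p = 3.1e-09). Sult1d1, which sulfates catecholamines and other phenols, read 8.44, 8.51, 8.65 and 8.79 on PBS and 6.78, 6.92, 7.88 and 7.90 on valproic acid. Its treated arrays lay in 2 pairs, both below the vehicle, and the difference was -1.23 ± 0.16 (adjusted p = 8.1e-09). The phenol sulfotransferase Sult1a1 stood at 11.55 ± 0.22 (SD, n = 4) against 11.59 ± 0.24 and was not called (adjusted p = 0.9).

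Of the 9 Ugt genes 8 fell, by 0.38 to 1.51, and 7 of them kept the call with any 1 array left out. Ugt2a3 had a median of 10.74 on PBS (10.56 to 10.90) and of 9.93 on valproic acid (9.69 to 10.01), and fell by 0.85 ± 0.08 (adjusted p = 2.4e-14). Ugt2b1 fell by 0.80 ± 0.14, Ugt2b35 by 0.62 ± 0.11, Ugt2b34 by 0.58 ± 0.08, Ugt2b5 by 0.49 ± 0.07, Ugt2b36 by 0.40 ± 0.06 and Ugt3a2, whose human counterpart uses other sugars than glucuronic acid, by 0.38 ± 0.07, with adjusted p from 7.4e-09 to 2.2e-05. All these had every treated array below every vehicle array. Ugt2b37 read 3.31, 3.84, 4.68 and 5.27 on PBS and 2.42, 2.70, 2.88 and 3.06 on valproic acid, where it lay below the array median and so near background. Its difference of -1.51 ± 0.44 (adjusted p = 0.0099) lost its call without PBS array 50 (-1.18, adjusted p = 0.082). Ugt8a, the galactosyltransferase of myelin lipids, was below the array median in all 21 groups.

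The remaining falls on day 1 were those of Gstm6 (-0.86), Sult1b1 (-0.82), Gsta3 (-0.58), the bile acid sulfotransferase Sult2a8 (-0.57), Gstt1 (-0.44), Gstm7 (-0.44), Gsto1 (-0.36), Gstk1 (-0.30) and Gstm1 (-0.29). Calls that rested on single arrays were those of Gstm7, which had an adjusted p of 0.06 without PBS array 25, Gstk1, which had 0.088 without valproic acid array 23, and Gstm1, which had -0.18 without PBS array 25 and -0.15 without valproic acid array 79 (adjusted p = 0.21 and 0.3). In a limma fit of only the arrays compared the adjusted p was 0.097 for Gsta3, 0.055 for Gsto1, 0.12 for Gstk1 and 0.34 for Gstm1. Gstm5 rose instead: its median was 6.97 on PBS (6.92 to 7.07) and 7.51 on valproic acid (7.49 to 7.54), a rise of 0.53 ± 0.13 (adjusted p = 0.0011). Sult1c1 also passed at 0.42 ± 0.13 from means of 2.86 and 2.44, both below the array median, and lost the call without PBS array 82 (adjusted p = 0.057) or valproic acid array 80 (0.13), and in a fit of only the arrays compared (0.064).

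**Figure D1:**
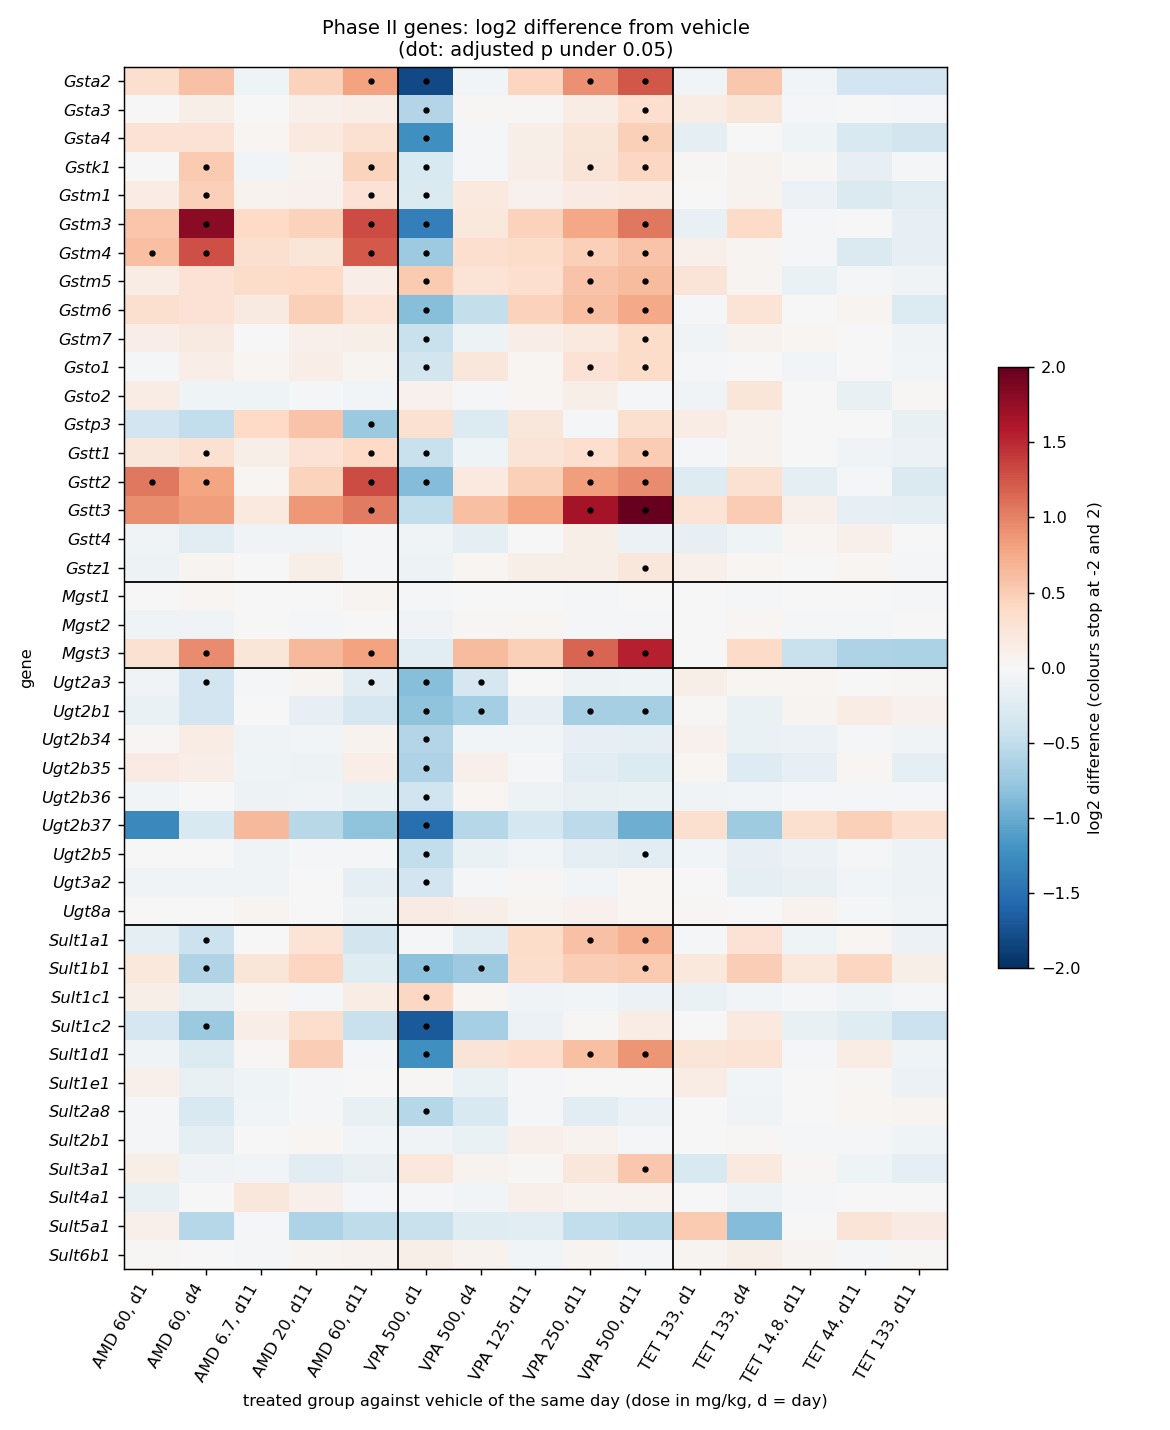
Log2 difference from the vehicle of the same day for the 42 genes (rows, by family) in the 15 treated groups (columns, doses in mg/kg), in red for higher and blue for lower, with a dot where the adjusted p was under 0.05. The column of valproic acid on day 1 is mostly blue with 24 lower calls, that at 500 mg/kg on day 11 holds 19 higher calls, and the 5 tetracycline columns hold 0 dots.

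By day 4 most of the fall was no longer seen. Of the 42 genes 3 fell and 0 rose under valproic acid, where 1.04% of all genes were called lower. At an unadjusted p under 0.05 (limma) were 12 of the 42 and 2055 of all 16464 genes. Ugt2b1 remained low, at 11.97 ± 0.12 on PBS and 11.29 ± 0.34 on valproic acid (SD, n = 4), a difference of -0.68 ± 0.14 (adjusted p = 0.00099, or 0.052 in a limma fit of only the arrays compared). Ugt2a3 differed by -0.33 ± 0.08 (adjusted p = 0.007) and lost the call without valproic acid array 4 (-0.28, adjusted p = 0.074) and in a fit of only the arrays compared (0.096). Sult1b1, known for sulfating thyroid hormone, differed by -0.73 ± 0.20 (adjusted p = 0.022) and lost the call without any of 5 arrays, with -0.62 and adjusted p = 0.13 without valproic acid array 92. The effect on day 4 minus that on day 1 was called higher for 16 genes and lower for 0, where 3.04% of all genes were called higher. The differences were 1.76 ± 0.41 for Gsta2 (adjusted p = 0.0024), 1.58 ± 0.44 for Gstm3 (0.014) and 1.49 ± 0.23 for Sult1d1 (3.3e-06). That of Gstm3 lost its call without PBS array 40, valproic acid array 79 or valproic acid array 4 (adjusted p = 0.051 to 0.067), with blocks of sample numbers (0.051) and in a fit of only the arrays compared (0.068), and that of Gsta2 had an adjusted p of 0.15 in a limma fit of only the arrays compared.

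On day 11 most Gst and Mgst genes and several sulfotransferases stood above vehicle at 500 mg/kg. Of the 42 genes 19 rose and 2 fell, where 5.89% of all genes were called higher and 3.14% lower, with a median of 0.18 over the 42 and of -0.01 over all genes. The genes that rose were 15 of 21 Gst and Mgst genes, 4 of 12 Sult genes and 0 of 9 Ugt genes. The 2 that fell were Ugt genes.

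Gstt3, a theta-class transferase, read 6.46, 6.81, 6.91, 7.34 and 7.55 on PBS and 8.71, 8.93, 9.42, 9.47 and 9.64 on valproic acid. The groups were far apart, and the rise of 2.22 ± 0.25 (adjusted p = 6.8e-10) was 4.66-fold. Mgst3, a membrane-bound glutathione transferase and peroxidase, read 6.49, 6.51, 6.58, 6.67 and 7.09 on PBS and 8.01, 8.10, 8.22, 8.38 and 8.43 on valproic acid. It too was separated, and rose by 1.56 ± 0.22 (adjusted p = 1.6e-07).

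Gsta2 read 8.52, 9.03, 9.21, 9.50 and 9.55 on PBS and 10.02, 10.39, 10.54, 10.55 and 10.55 on valproic acid, a rise of 1.25 ± 0.26 (adjusted p = 0.00039). Gstm3 read 6.99, 7.09, 7.22, 7.35 and 7.37 against 7.88, 8.03, 8.16, 8.24 and 8.95, and rose by 1.05 ± 0.28 (adjusted p = 0.0065). Both genes, lower than vehicle on day 1, now had every treated array above every vehicle array. Gstt2 read 8.54, 8.63, 8.84, 9.06 and 9.11 against 9.42, 9.66, 9.80, 9.97 and 10.05 (0.95 ± 0.15, adjusted p = 3.7e-06), and Sult1d1 read 7.82, 8.10, 8.27, 8.50 and 8.76 against 9.02, 9.09, 9.10, 9.24 and 9.42 (0.89 ± 0.15, adjusted p = 7.5e-06). Neither overlapped with its vehicle.

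Firm rises of smaller size were those of Gstm6 (0.76), Sult1a1 (0.69), Gstm5 (0.64), Gstm4 (0.57), Gstt1 (0.52), Gstk1 (0.41), Gsto1 (0.37) and Gsta3 (0.34), each called with any 1 array left out. The calls of Sult3a1, Sult1b1, Gsta4, Gstm7 and Gstz1, the enzyme of tyrosine breakdown, lay between 0.23 and 0.54 and were lost without single arrays, and in a fit of only the arrays compared (adjusted p = 0.17, 0.081, 0.051, 0.11 and 0.072). Those of Sult1b1, Gstm7 and Gstz1 were lost after quantile normalization again as well (0.07, 0.072 and 0.13). Sult3a1 is near background in PBS and moved to 0.35 (adjusted p = 0.25) without valproic acid array 6. Ugt2b1 had a median of 12.02 on PBS (11.88 to 12.12) and of 11.33 on valproic acid (11.07 to 11.60), and fell by 0.67 ± 0.12 (adjusted p = 4.8e-05). Ugt2b5 differed by -0.23 ± 0.06 (adjusted p = 0.014) and lost the call without valproic acid array 6 (-0.19, adjusted p = 0.077), PBS array 32 or valproic acid array 49, and in a fit of only the arrays compared (0.092).

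**Figure D2:**
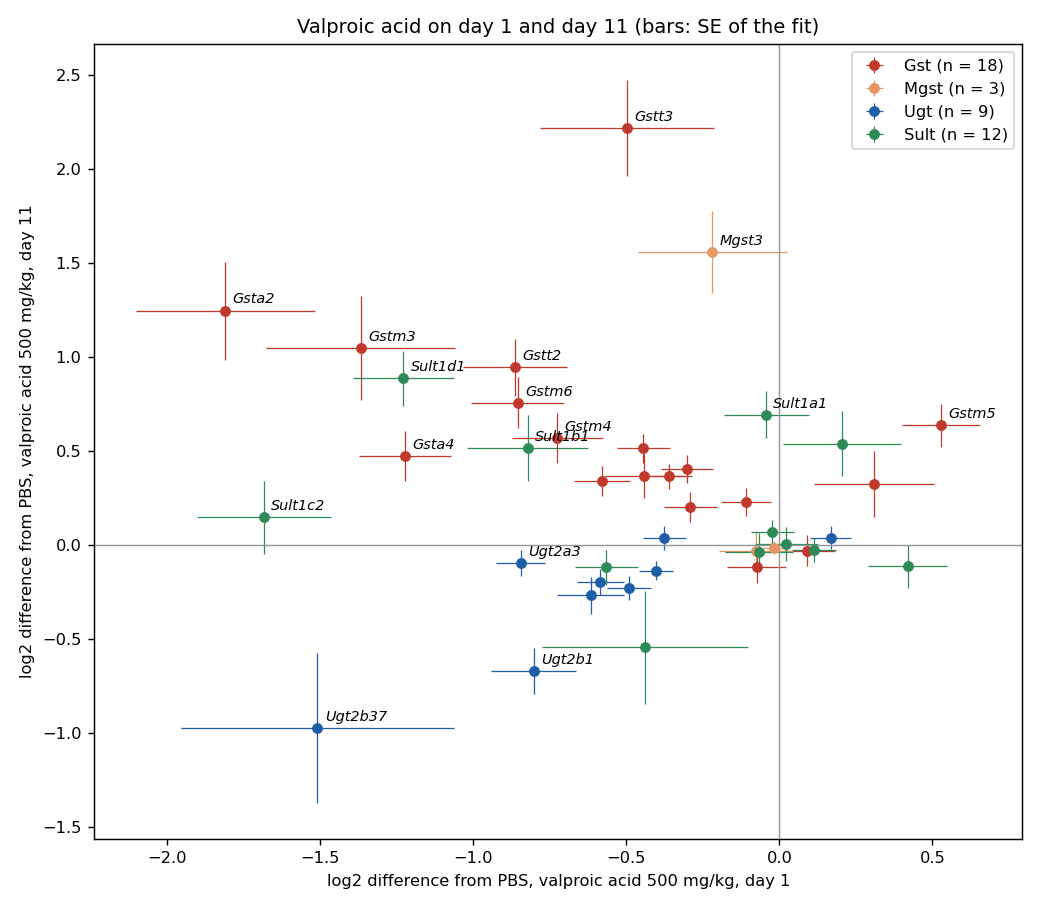
Difference from PBS at 500 mg/kg valproic acid on day 1 (horizontal axis) and on day 11 (vertical axis), log2 scale, with 1 point per gene and bars for the SE of the fit, coloured by family. Gsta2, Gstm3, Sult1d1 and Gstt2 lie in the upper left (lower on day 1, higher on day 11), while Ugt2b1 lies in the lower left with -0.80 and -0.67.

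Of the 42 genes, 13 were called lower on day 1 and higher on day 11, and for all 13 the difference between the days was itself called. Over all genes 1.01% had both calls (167 genes), and the difference was called in all 167 too. For genes picked by 2 calls of opposite sign, the call of the difference was nearly fixed and is no further support. As a share of the genes called lower on day 1, these were 54.2% of 24 members and 13.1% of 1273 genes. They were Gsta2, Gsta3, Gsta4, Gstk1, Gstm3, Gstm4, Gstm6, Gstm7, Gsto1, Gstt1, Gstt2, Sult1b1 and Sult1d1. Ugt2b1 and Ugt2b5 were called lower on both days and Gstm5 higher on both. The effect on day 11 minus that on day 1 was called higher for 24 genes and lower for 1, where 6.97% and 5.32% of all genes were called. It was 3.06 ± 0.39 for Gsta2 (adjusted p = 4e-09), 2.72 ± 0.38 for Gstt3 (4.9e-08) and 2.42 ± 0.41 for Gstm3 (5.7e-06). The lower one was Sult1c1 at -0.53 ± 0.17 (adjusted p = 0.028), near background, which lost the call without any of 7 arrays (-0.43, adjusted p = 0.12, without valproic acid array 80 of day 1) and after quantile normalization again (0.059). Days 1 and 11 were sampled from separate groups, each against its own PBS arrays.

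The number of genes called higher on day 11 grew with dose. At 250 mg/kg 12 genes rose and 1 fell (2.76% and 1.49% of all genes were called). At 125 mg/kg 0 were called by limma (0.0547% of all genes), with 10 of 42 and 1440 of all 16464 genes at an unadjusted p under 0.05. Gstt3 differed by 0.79, 1.67 and 2.22 at 125, 250 and 500 mg/kg, and Mgst3 by 0.47, 1.17 and 1.56. The trend over the 4 dose ranks shares the PBS and 500 mg/kg arrays with the calls at 500 mg/kg and is no separate support. It was called higher for 19 genes and lower for 4 (6.32% and 3.62% of all genes). Its slope per rank was 0.75 ± 0.08 for Gstt3 (adjusted p = 2.8e-11), 0.54 ± 0.07 for Mgst3 (1e-08) and 0.42 ± 0.08 for Gsta2 (0.00011). The falling slopes were -0.25 ± 0.04 for Ugt2b1 (1.4e-06), -0.10 ± 0.03 for Ugt2b35 (0.025, with 0.13 without valproic acid array 6 and 0.1 in a fit of only the arrays compared), -0.08 ± 0.02 for Ugt2b5 (0.0038, and 0.056 in a fit of only the arrays compared) and, losing its call without single arrays, that of Ugt2b34.

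At 250 mg/kg the 6 largest rises were those of Gstt3 (1.67), Mgst3 (1.17), Gsta2 (0.91), Gstt2 (0.84), Sult1d1 (0.61) and Gstm6 (0.59), followed by Sult1a1, Gstm5, Gstm4, Gstt1, Gsto1 and Gstk1 at 0.26 to 0.59. Gsta2 lost its call without PBS array 2 (0.75, adjusted p = 0.12), PBS array 90 or valproic acid array 29, and Sult1d1 without PBS array 2 (0.49, 0.051). Gstm4 lost it without valproic acid array 67 (0.34, 0.2) or array 51, and Gstk1 without any of 6 arrays. In a limma fit of only the arrays compared the adjusted p was 0.12 for Sult1d1, 0.062 for Gstm5, 0.26 for Gstm4, 0.06 for Gstt1, 0.17 for Gsto1 and 0.16 for Gstk1. With blocks of sample numbers it was 0.075 for Gsta2 and 0.079 for Gstm4, for Gstm4 0.058 with array quality weights, and for Gstk1 0.08 after quantile normalization again. Array 67 stood apart from its group, with a median correlation of 0.987 with the other 4. Ugt2b1 read 10.41 on that array and 11.49 to 11.69 on the others, against 11.88 to 12.12 on PBS. Its difference was -0.66 ± 0.12 (adjusted p = 0.00022) with the array and -0.43 without it, where it kept its call, and in a limma fit of only the arrays compared the adjusted p was 0.15.

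**Figure D3:**
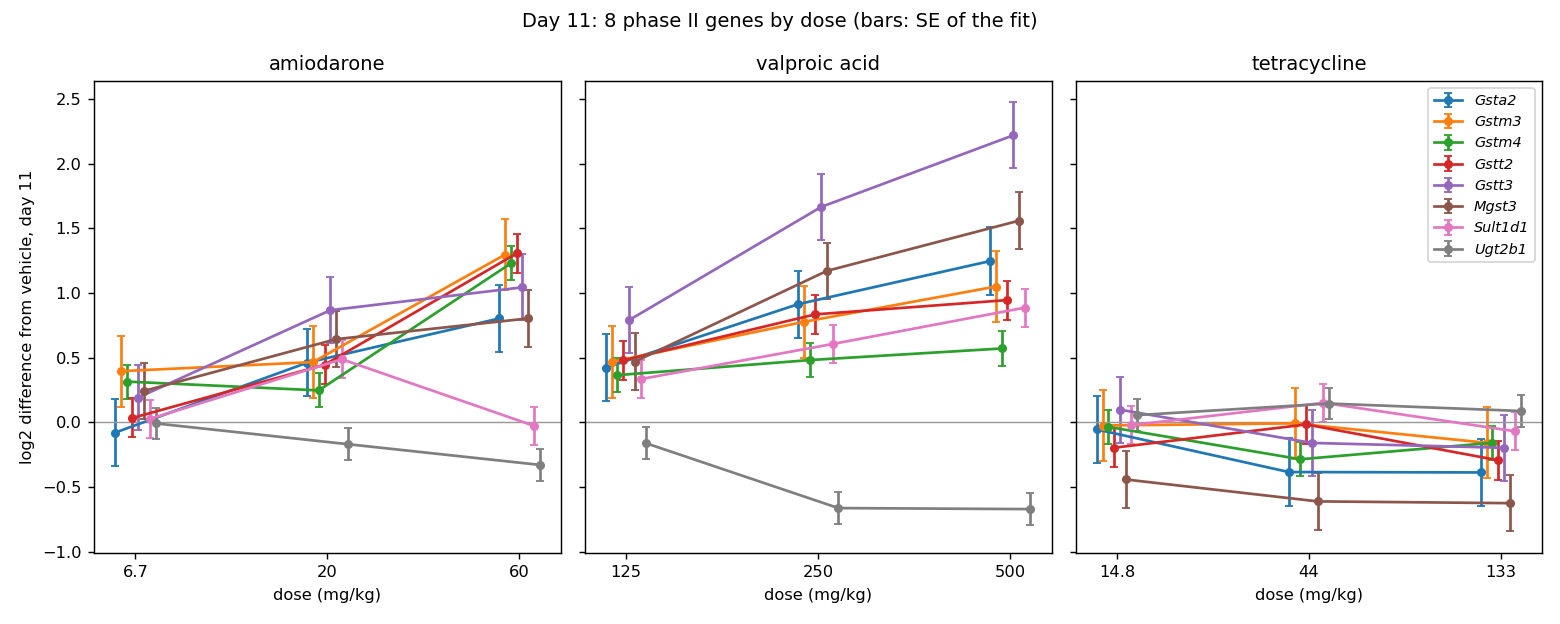
Difference from vehicle on day 11 (log2 scale, vertical axis) at 3 doses of each compound (horizontal axis, mg/kg) for 8 genes, with bars for the SE of the fit. Gstt3 and Mgst3 climb to 2.22 and 1.56 under valproic acid, Gstt2, Gstm3 and Gstm4 lie at 1.23 to 1.31 at 60 mg/kg amiodarone, and Ugt2b1 goes down under valproic acid.

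Sex-biased liver genes moved at the same doses of valproic acid. Of 9 measured male-biased genes 8 were lower at 250 mg/kg (median -1.32, all genes -0.00) and 6 at 500 mg/kg (median -0.80), where 1.49% and 3.14% of all genes were called lower, among them Hsd3b5 at -3.58 ± 0.59 (adjusted p = 6.7e-06 at 500 mg/kg). Without array 67 the count at 250 mg/kg was 3 and the median -0.66. The summed log2 level of the list ran from 63.0 to 76.8 at 500 mg/kg and from 81.1 to 85.0 on PBS. Of 10 measured female-biased genes Cyp2b9, Acot3 and Fmo2 rose at 500 mg/kg (5.89% of all genes). The part of these shifts in the fall of Ugt2b1 or the rise of Sult3a1 was not tested.

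Under amiodarone at 60 mg/kg, 2 genes rose on day 1 and 0 fell (0.674% of all genes were called higher), the theta-class Gstt2 and the mu-class Gstm4. Gstt2 read 8.68, 8.83, 9.04 and 9.30 on PBS and 9.95, 10.00, 10.02 and 10.10 on amiodarone, a clear gap, and rose by 1.06 ± 0.17 (adjusted p = 1.9e-05). Gstm4 read 7.71, 7.86, 7.95 and 8.18 on amiodarone, all above PBS, and its rise of 0.61 ± 0.15 (adjusted p = 0.019) lost the call without any of 4 arrays (0.52, adjusted p = 0.12, without amiodarone array 13) and had an adjusted p of 0.077 in a limma fit of only the arrays compared.

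On day 4 7 genes rose and 4 fell (4.01% and 2.2% of all genes were called). Gstm3 read 6.87, 7.41, 7.57 and 7.60 on PBS and 8.87, 9.10, 9.14 and 9.53 on amiodarone, and rose by 1.80 ± 0.31 (adjusted p = 1.6e-05). Gstm4 read 7.24, 7.27, 7.32 and 7.36 on PBS and 8.50, 8.53, 8.65 and 8.66 on amiodarone, and rose by 1.29 ± 0.15 (adjusted p = 2.7e-10). In both genes the treated arrays lay more than 1 log2 unit above the highest vehicle array. Firm rises were also seen in Gstt2 (0.79 ± 0.17), Gstk1, the transferase of mitochondria and peroxisomes (0.52 ± 0.08), and Gstm1 (0.47 ± 0.09), with adjusted p of 0.00074, 5.1e-06 and 7.4e-05. Mgst3 rose by 0.94 ± 0.24 (0.0071) but had 0.79 and an adjusted p of 0.056 without amiodarone array 17, and Gstt1 rose by 0.30 ± 0.09 (0.018) and lost the call without any of 3 arrays, with 0.26 (0.1) without amiodarone array 69 and 0.052 in a fit of only the arrays compared.

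The falls on day 4 lay outside the glutathione transferases. Ugt2a3 fell by 0.39 ± 0.08 (adjusted p = 0.00033), from a median of 10.75 on PBS (10.58 to 10.75) to 10.32 (10.12 to 10.51). The sulfotransferases Sult1c2 (-0.74), Sult1b1 (-0.61) and Sult1a1 (-0.42) were called lower too. Of the 8 refits with 1 array left out, Sult1c2 lost its call in 5, and Sult1b1 and Sult1a1 in 7 each. With blocks of 24 sample numbers in the limma fit the adjusted p of Sult1c2, Sult1b1 and Sult1a1 was 0.083, 0.085 and 0.07. Over the 12 Sult genes the median was -0.23 on this day.

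On day 11 9 genes rose and 2 fell (4.24% and 2.81% of all genes were called). Gstt2 read 9.99, 10.09, 10.11, 10.24 and 10.29 on amiodarone, Gstm4 read 8.21, 8.34, 8.40, 8.60 and 8.81, and Gstm3 read 7.84, 7.96, 7.99, 8.94 and 9.78. On PBS of day 11 Gstm4 read 7.11, 7.13, 7.18, 7.22 and 7.56, Gstt2 read 8.54 to 9.11 and Gstm3 read 6.99 to 7.37. All 3 were separated from vehicle, Gstm3 with the wider spread. They rose by 1.31 ± 0.15 (adjusted p = 2.1e-10), 1.23 ± 0.13 (1.2e-11) and 1.30 ± 0.28 (0.00047). Gstt3 read 7.58, 7.99, 8.14, 8.25 and 8.35, and rose by 1.04 ± 0.25 (0.003), Gstk1 rose by 0.44 ± 0.08 (8.1e-06) and Gstt1 by 0.40 ± 0.08 (9e-05).

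Mgst3 (0.80, 0.68 with an adjusted p of 0.063 without amiodarone array 31), Gsta2 (0.80, lost without any of 6 arrays) and Gstm1 (0.29, 0.24 and 0.065 without amiodarone array 62) completed the rises. In a fit of only the arrays compared the adjusted p was 0.057 for Gsta2 and 0.053 for Gstm1, and for Gsta2 it was 0.099 with blocks of sample numbers and 0.053 after quantile normalization again. Gstp3, a pi-class transferase, fell: its median was 6.47 on PBS (6.30 to 6.83) and 5.90 on amiodarone (5.37 to 6.02), a difference of -0.74 ± 0.18 (adjusted p = 0.0022). Ugt2a3 differed by -0.23 ± 0.07 (0.029) and lost the call without any of 6 arrays, with -0.20 (0.095) without amiodarone array 12 and 0.06 in a fit of only the arrays compared.

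The lower doses of amiodarone gave 0 called members by limma on day 11 (0% of all genes called at 6.7 mg/kg and 0.322% at 20 mg/kg). At an unadjusted p under 0.05 were 5 of 42 at 6.7 mg/kg, against 776 of all 16464 genes, and 11 of 42 at 20 mg/kg, against 1834. At 20 mg/kg 5 genes were called without amiodarone array 65 and 3 without PBS array 73. The share of all genes called in these refits is not given here, so the counts are not read as a result about the members. The dose trend was called higher for 9 genes and lower for 1 (4.21% and 2.81% of all genes). The slopes per rank were 0.43 ± 0.05 for Gstt2 (adjusted p = 3.6e-11), 0.40 ± 0.09 for Gstm3 (0.0008) and 0.38 ± 0.08 for Gstt3 (0.00044), and the falling one was -0.20 ± 0.06 for Gstp3 (0.0098, and 0.058 without amiodarone array 12). For the difference between days, 1 gene was called for day 4 against day 1 (0.334% of all genes higher), Gstk1 at 0.51 ± 0.12 (0.02). It lost the call without any of 5 arrays and had 0.16 in a fit of only the arrays compared. For day 11 against day 1, 0 were called (0.109% of all genes), with 2 of 42 and 1114 of all 16464 genes at an unadjusted p under 0.05.

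**Figure D4:**
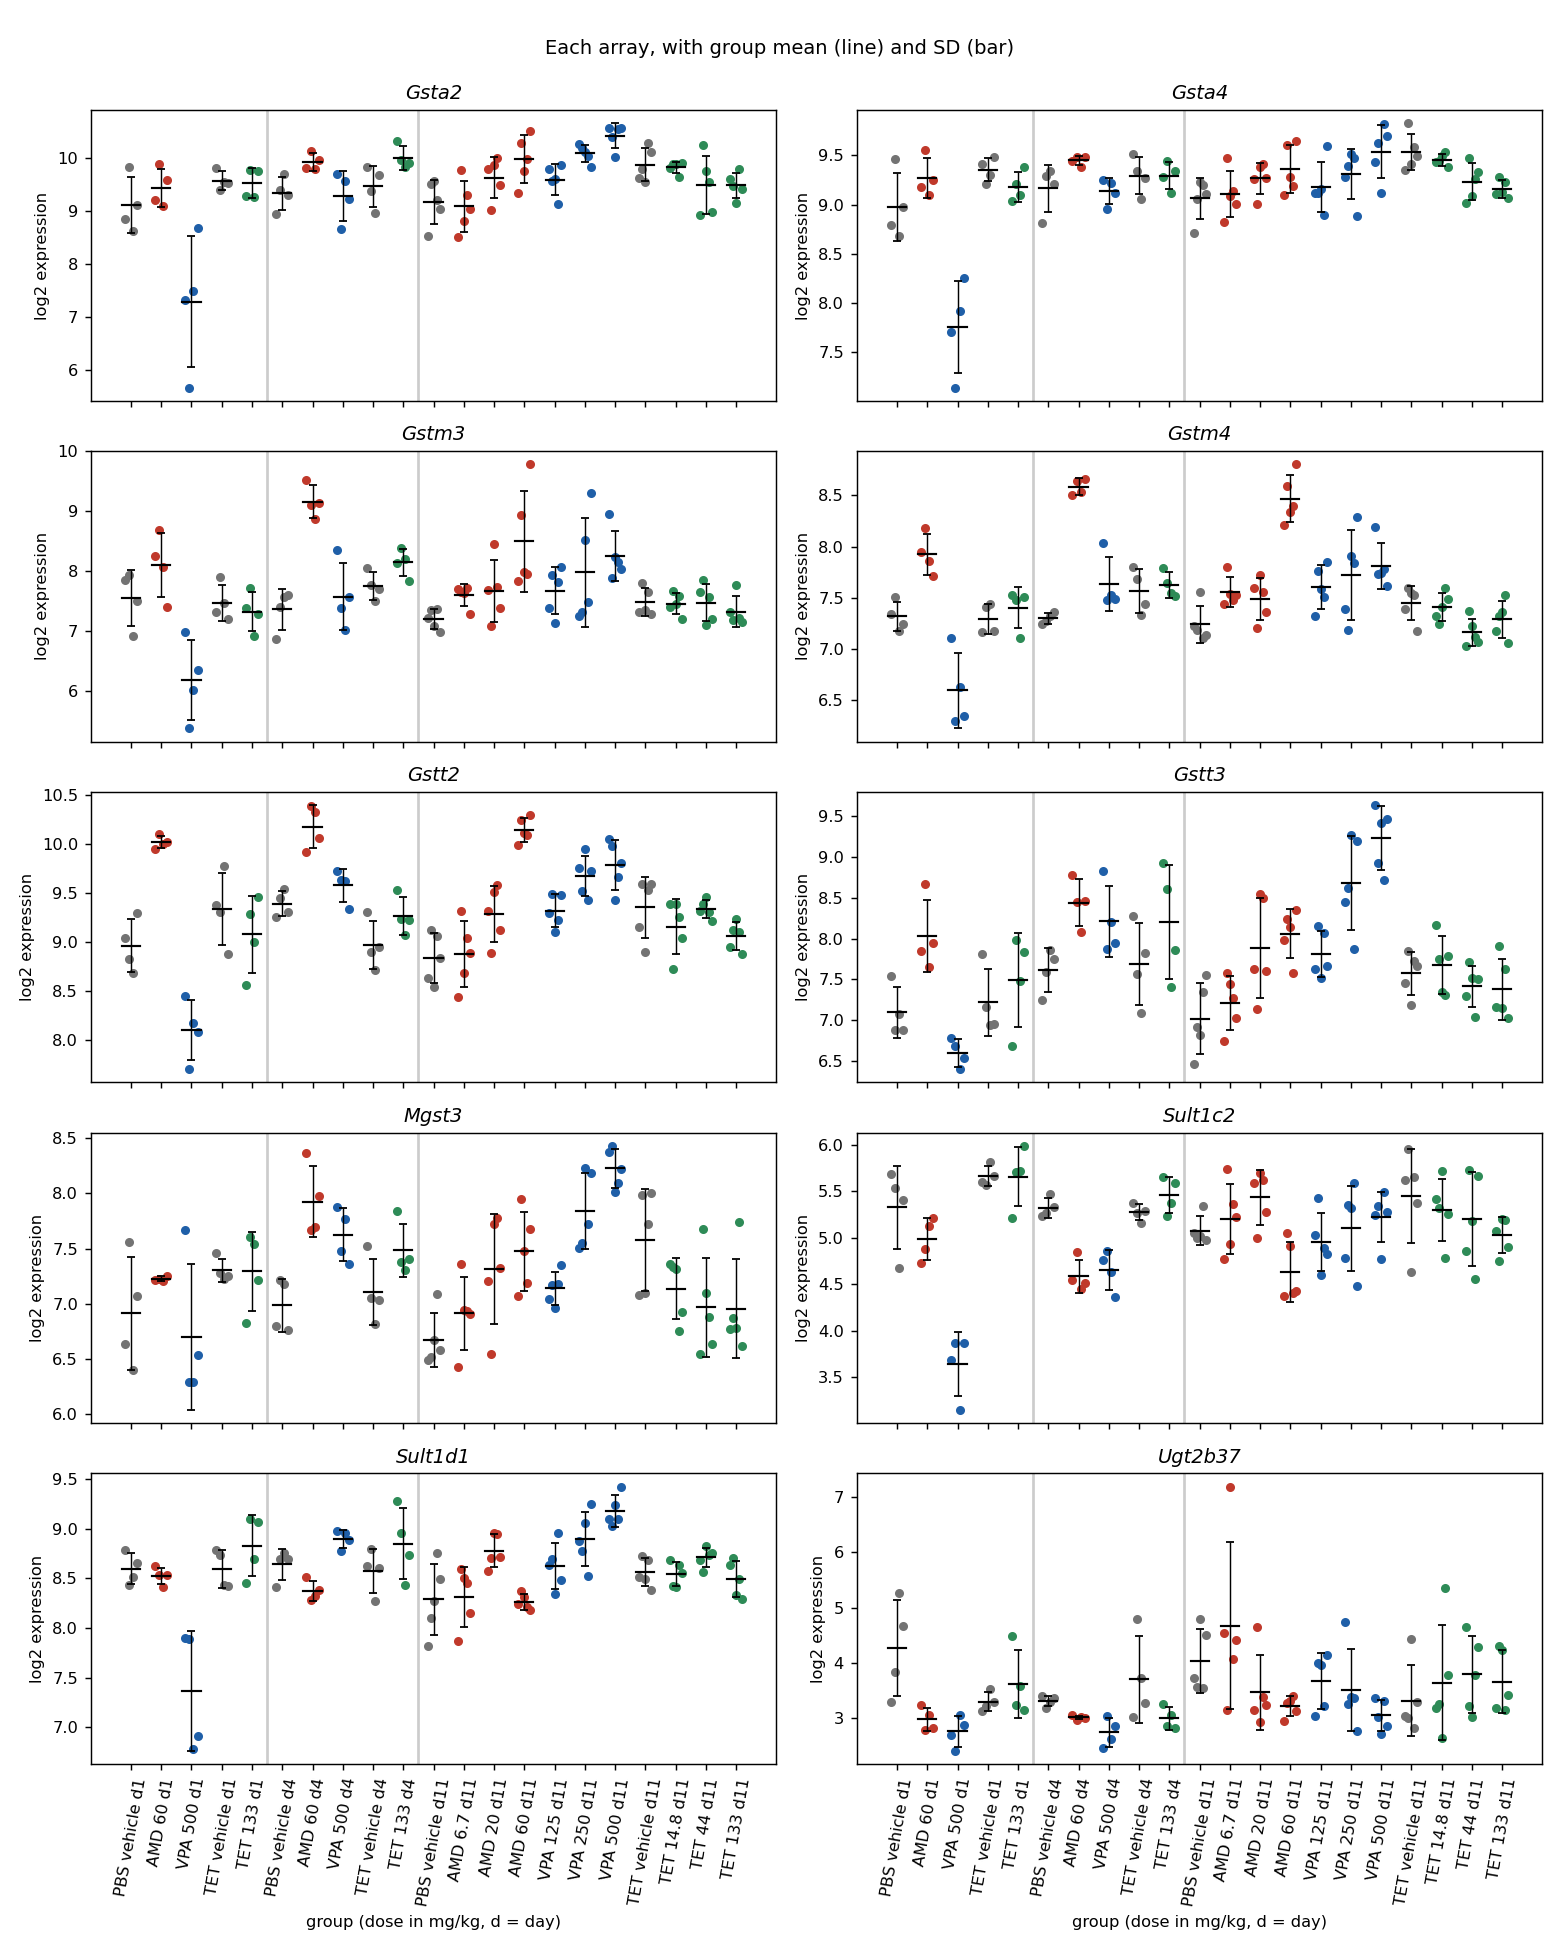
Log2 expression (vertical axes) on each array for the 10 genes with the largest called differences, by group (horizontal axis, doses in mg/kg), with vehicles in grey, amiodarone in red, valproic acid in blue and tetracycline in green, and with the group mean and SD. Gsta2, Gsta4, Gstm3 and Sult1d1 drop in the blue group of day 1, and Gstm4 and Gstt2 stand high in the red groups at 60 mg/kg on days 4 and 11.

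The compounds were set against each other at their high doses, which differ in mg/kg, so that the values compare groups and not equal exposures. Both had the same PBS arrays, which cancel in this difference. On day 1 valproic acid was below amiodarone in 24 genes and above in 2 (8.28% and 7.94% of all genes). The gaps were -2.14 ± 0.29 for Gsta2 (adjusted p = 9.4e-09), -1.92 ± 0.31 for Gstm3 (7.2e-07) and -1.92 ± 0.17 for Gstt2 (1.2e-15), and the higher ones were Gstp3 (0.69, lost without valproic acid array 23) and Gstm5 (0.38, lost without any of 5 arrays). On day 4 valproic acid was below in 7 genes and above in 1 (4.86% and 3.69% of all genes), with -1.58 ± 0.31 for Gstm3, -0.95 ± 0.15 for Gstm4 and -0.77 ± 0.15 for Gstm6 (adjusted p = 0.00014, 1.4e-06 and 0.00019). The higher one, Sult1d1 at 0.52, lost its call without single arrays.

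On day 11 valproic acid was above amiodarone in 13 genes and below in 4 (4.63% and 3.43% of all genes). Gstt3 was higher by 1.18 ± 0.25 (adjusted p = 0.00067), Gstp3 by 1.06 ± 0.18 (5.6e-06) and Sult1a1 by 1.06 ± 0.12 (6.5e-10). For Gstm4 the difference was -0.66 ± 0.13 (0.00021), for Ugt2b35 -0.40 ± 0.10 (0.0032, and 0.067 in a fit of only the arrays compared) and for Ugt2b34 -0.27 ± 0.07 (0.0066). For Gstt2 and Gstm3 the difference between the compounds was -0.36 (95% interval -0.66 to -0.06, adjusted p = 0.15) and -0.25 (-0.80 to 0.30, adjusted p = 0.71), and neither was called.

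Under tetracycline 0 of the 42 genes were called by limma in any group. At 133 mg/kg the genes at an unadjusted p under 0.05 were 1 of 42 on day 1, 8 on day 4 and 4 on day 11. Over all 16464 genes they were 1867, 1386 and 888, and 0.65%, 0% and 0% of all genes were called. At 14.8 and 44 mg/kg they were 2 and 6 of 42 (1074 and 1663 of all genes, with 0% and 0.0243% called). For the dose trend they were 4 of 42 (884 of all genes, 0% called). Mgst3 read 7.08, 7.09, 7.72, 7.99 and 8.01 on the vehicle of day 11 and 6.62, 6.76, 6.77, 6.87 and 7.74 at 133 mg/kg. The groups overlapped, and its difference of -0.63 (95% interval -1.06 to -0.19, adjusted p = 0.81) was not called. Between the 2 vehicles 0 of the 42 genes were called by limma on day 1, day 4 or day 11 (0.0911%, 0.0121% and 0% of all genes). That does not show the vehicles equal. At an unadjusted p under 0.05 were 5, 2 and 11 of 42, and 1591, 1123 and 1407 of all genes. On day 11 the tetracycline vehicle minus PBS ran from -0.04 to 0.91 over the Gst and Mgst genes (median 0.21). It ran from -0.65 to 0.37 over the Sult genes and from -0.71 to 0.09 over the Ugt genes. The highest of the Gst and Mgst differences, 0.91, was that of Mgst3, and it was not called. The called rise of Mgst3 under 60 mg/kg amiodarone on day 11, against PBS, was smaller at 0.80.

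No call against a vehicle was made for 10 members, Gsto2, Gstt4, Mgst1, Mgst2, Sult1e1, Sult2b1, Sult4a1, Sult5a1, Sult6b1 and Ugt8a. Mgst1 lay at 12.88 to 12.96 in the group means and its differences ran from -0.05 to 0.05. Sult5a1 ranged from 5.57 to 6.65 with differences of -0.86 to 0.53, none of which was called. The other 8, among them the estrogen sulfotransferase Sult1e1, had every group mean below the array median, so their levels are near background and a change there could have been missed.

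The genes that supply the cofactors moved both ways under valproic acid. On day 1 the PAPS synthase gene Papss2 fell by 1.68 ± 0.13 (adjusted p = 1.1e-18) and the other PAPS synthase gene, Papss1, rose by 0.76 ± 0.15 (4.2e-05). The UDP-glucose enzyme genes Ugp2 and Ugdh fell by 1.22 ± 0.11 (1.1e-15) and by 0.48 ± 0.11 (0.00088). Gclc, the catalytic subunit of the first step of glutathione synthesis, fell by 0.89 ± 0.17 (2.1e-05). Of 9 genes of UDP-glucuronic acid supply 3 fell and 1 rose, of 16 of sulfate activation and turnover 4 fell and 2 rose, and of 19 of glutathione metabolism 4 fell and 3 rose, where 7.73% of all genes were called lower and 7.99% higher. The counts of rises, 1 of 9 and 2 of 16, are near that share. Chac1, which breaks glutathione down, rose by 2.12 ± 0.39 (1.4e-05). On day 11 Papss2 was higher by 0.75 ± 0.11 (8.9e-07), and 7 of 16 sulfate genes rose and 1 fell, a count that was 5 without PBS array 32. The glutathione list had 3 of 19 higher and 2 lower and the UDP-glucuronic acid list 2 of 9 higher and 1 lower, where 5.89% of all genes were called higher and 3.14% lower. Glutathione synthetase, Gss, differed by -0.80 ± 0.16 (0.00022).

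Other conjugating enzymes and the carriers that export conjugates were followed too. On day 1 of valproic acid 11 of 21 other phase II genes fell and 2 rose, and 4 of 13 carriers fell, among them Abcc2, the canalicular pump for conjugates (-0.73 ± 0.11, adjusted p = 2.6e-07), and Abcc3 (-0.50 ± 0.14, 0.0056). Of all genes 7.73% were called lower and 7.99% higher, so that 2 of 21 higher is near the share of all genes. On day 11, with 5.89% of all genes called higher and 3.14% lower, 7 of 21 rose and 1 fell, and 5 of 13 carriers rose and 1 fell, Abcc4 by 0.59 ± 0.16 (0.011). Under amiodarone Abcc3, the sinusoidal pump, rose by 1.02 ± 0.14 on day 1, 0.66 ± 0.14 on day 4 and 1.02 ± 0.12 on day 11 (3.1e-07, 0.00046 and 9.4e-10), and the epoxide hydrolase Ephx1 by 0.57, 0.83 and 0.66 (0.021, 8.7e-06 and 7.3e-05). Ugdh rose on days 4 and 11 (0.66 ± 0.11 and 0.40 ± 0.10) while Ugp2 fell (-0.58 ± 0.11 and -0.45 ± 0.09). Nqo1, a quinone reductase and classical NRF2 target followed as a reference gene, was called higher on day 4 and day 11 of amiodarone (1.25 ± 0.26 and 1.01 ± 0.23, 0.00034 and 0.0012). Under 500 mg/kg valproic acid it differed by -0.15 ± 0.26 on day 1 (0.8) and rose by 1.08 ± 0.26 on day 4 and 1.03 ± 0.23 on day 11 (0.0066 and 0.00098). Other genes of the glutathione list went both ways. On day 11 of 60 mg/kg amiodarone Gsr and Oplah were called higher and Gclm, Gss and Cbs lower (4.24% and 2.81% of all genes). On day 11 of 500 mg/kg valproic acid Ggt6, Ggct and Cth were called higher and Gclm and Gss lower (5.89% and 3.14%).

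Of 21 regulators of these genes 6 fell and 2 rose on day 1 of valproic acid, where 7.73% of all genes were called lower and 7.99% higher, and 2 of 21 is near the latter share. Nfe2l2 fell by 0.88 ± 0.15 (adjusted p = 3.8e-06) and Ppara by 0.53 ± 0.14 (0.0031), while Ahr rose by 0.48 ± 0.15 (0.014). On day 11 Nr1i3 rose by 0.62 ± 0.17 (0.0092) and Hnf4a fell. Under amiodarone Nr1i3 was called on day 1 (0.70 ± 0.19, 0.047), and on day 11 2 of 21 regulators rose and 3 fell (4.24% and 2.81% of all genes). These counts were small and moved: on day 1 of valproic acid 3 regulators fell without PBS array 3, PBS array 25 or valproic acid array 79, and on day 11 of amiodarone 1 fell without amiodarone array 31, PBS array 2 or PBS array 20.

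Markers of other cells shifted in the same groups, and their counts stand beside 7.99% of all genes called higher and 7.73% lower on day 1 of valproic acid. On day 1 of valproic acid 2 of 7 neutrophil markers, S100a8 (2.14 ± 0.59, adjusted p = 0.0051) and S100a9, rose, 4 of 10 stellate cell markers fell and 1 rose, and of 8 hepatocyte markers Alb (-0.14 ± 0.03, 0.0011) and Ttr fell and Fgb rose (0.53 ± 0.06, 1.1e-10), with a median of -0.11 over the hepatocyte list. Without valproic acid array 23 or 79, 1 neutrophil marker rose, and without PBS array 25 or valproic acid array 23, 2 stellate cell markers fell. The summed log2 level of the neutrophil list was 21.4 to 28.3 on the treated arrays and 20.1 to 21.1 on PBS, and that of the stellate cell list 48.3 to 50.9 and 50.7 to 53.9. That of the hepatocyte list was 98.9 to 100.6 on the treated arrays and 99.0 to 100.9 on PBS. On day 4 6 of 11 Kupffer cell markers rose (median 0.71, with 1.32% of all genes called higher), Clec4f by 0.71 ± 0.16 (0.0048), a count that was 2 without PBS array 41 or valproic acid array 92, with summed levels of 71.6 to 79.6 against 62.6 to 76.8. On day 11 of amiodarone 2 of 8 hepatocyte, 3 of 10 stellate cell and 3 of 10 endothelial markers fell (2.81% of all genes), the last count being 1 without amiodarone array 12, 39 or 62 or PBS array 32, 73 or 90, and the neutrophil sum ran from 20.3 to 39.9 against 20.1 to 23.9 on PBS. The part of any of these in the changes of the conjugating enzymes was not tested.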

How the data were processed

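The values are log2 expression values deposited by the authors, made with RMA (robust multi-array average) per the submitters' processing notes. The version of RMA and the genome build are not given in those notes or the labels. The table has 17306 probe sets, of which 842 have no gene symbol and 0 have more than one, and the tests ran over the remaining 16464. Each gene had 1 probe set, and all 16464 matched RefSeq by Entrez ID. Whether every array comes from its own animal is not stated in the labels. A p-value therefore reflects the spread among these arrays, which could be technical.

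All 95 arrays entered 1 model of 21 group means, in limma 3.58.1 under R 4.3.3 (residual degrees of freedom 74). It gave 28 comparisons: 15 of a treated group with its same-day vehicle, 3 dose trends, 4 differences between days, 3 between compounds and 3 between vehicles. Benjamini-Hochberg adjustment ran over 16464 genes, and a gene was called at an adjusted p under 0.05. The trend is the slope of the day 11 means on dose rank. It weighs the vehicle and high-dose arrays most, so its calls largely repeat those at the high dose and show no change at each dose. A group mean below the array median (3.11 in the median array) is near background, and a log2 difference there understates the change. Called members were named where a comparison had 12 or fewer, otherwise the 6 largest each way, and the 3 largest each way for trends and differences. A call is firm where it held with each array left out. Values on every array are given for 10 members. The fit was tested on simulated data with the same SD of a gene in every group, which does not cover groups of unequal spread. Figures used matplotlib 3.10.9 in Python 3.11.15. The members and the gene lists were chosen with earlier results of these data known. The alternatives were array quality weights, only the arrays compared, dim genes left out, quantile normalization again, blocks of 24 sample numbers, a variance trend, and each array left out. Leaving out each array for the counts over gene lists was added after seeing the data.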

Additional observations from a re-analysis of the deposited data

Results flagged for a closer look

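In 87 sets of values, those of the named genes in the groups compared, 3 held an array far from the rest by Dixon's test, where chance gives about 1 in 20. On PBS of day 4, Ugt2a3 read 10.58 on array 40 and 10.74 to 10.75 on the others. On PBS of day 11, Gstm4 read 7.56 on array 32 and 7.11 to 7.22 on the others. At 250 mg/kg valproic acid on day 11, Ugt2b1 read 10.41 on array 67 and 11.49 to 11.69 on the others.

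The effect of a compound was called different between days, by the test of the difference itself, in these named genes. The effect of amiodarone on Gstk1 was larger on day 4 than on day 1 by 0.51 (adjusted p = 0.02, limma). That of valproic acid on day 4 exceeded day 1 by 1.76 for Gsta2 (0.0024), 1.58 for Gstm3 (0.014) and 1.49 for Sult1d1 (3.3e-06). On day 11 it exceeded day 1 by 3.06 for Gsta2 (4e-09), 2.72 for Gstt3 (4.9e-08) and 2.42 for Gstm3 (5.7e-06), and for Sult1c1 the difference was -0.53 (0.028). The calls of Gstk1, of Gstm3 on day 4 and of Sult1c1 were lost without single arrays. That of Gsta2 on day 4 was lost in a limma fit of only the arrays compared (0.15).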

How the results depend on the processing

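No named difference changed sign. With 1 array left out, 832 of the refitted values of named genes kept their call and 88 lost it, and under the 6 other settings 470 kept it and 26 lost it. Counts of called members that moved by over 1.5 times were 1 for amiodarone on day 1, 6 for valproic acid at 250 mg/kg and 9 for its day 4 against day 1 in a fit of only the arrays compared, which has fewer arrays to estimate the spread, and 1 for amiodarone at 20 mg/kg with dim genes left out. With 1 array left out the counts ran from 1 to 2 for amiodarone on day 1, 7 to 9 on day 4 and 8 to 12 on day 11 at 60 mg/kg, and from 0 to 5 at 20 mg/kg. For valproic acid they ran from 24 to 26 on day 1, 1 to 4 on day 4 (1 without array 4), 11 to 16 at 250 mg/kg and 16 to 22 at 500 mg/kg on day 11. The trends ran from 8 to 12 for amiodarone and 17 to 24 for valproic acid, and the differences between days from 0 to 1 for amiodarone (day 4) and from 12 to 16 (day 4) and 23 to 26 (day 11) for valproic acid. Between the compounds the counts ran from 24 to 26, 5 to 7 (5 without amiodarone array 53 or valproic acid array 92) and 14 to 17, and between the vehicles of day 11 from 0 to 1 (1 without array 16 of the tetracycline vehicle). No paired analysis was made because the labels give no pairing of arrays between groups. Group sizes of 4 or 5 arrays and levels near background limit what could be called.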
